A study of Mus musculus with 2 samples.

Results

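Adipose progenitor surface markers are the cell-surface proteins by which the precursors of fat cells are recognised and sorted. The set described here was chosen by name and holds 10 of the 24421 genes listed: Ly6a, Ly6c1, Ly6e, Pdgfra, Pdgfrb, Cd34, Thy1, Dpp4, Cd24a and Cd9. All 10 symbols were found. Of these, 7 were above 0 in both libraries and 3 (Cd34, Dpp4 and Cd24a) were listed at 0 in both. In the DF library, 4 markers were at least 1.5-fold lower than in the control (Ly6c1, Ly6a, Pdgfra and Cd9) and 0 were at least 1.5-fold higher. Of all genes examined, 10.9% were lower and 10.2% higher by that much. Ly6c1 passed the floor on low values through the control library alone.

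The study profiled messenger RNA in 3T3-L1 cells, a mouse fibroblast-like line that was derived as a clone and turns into fat cells under hormones. The labels give its strain background as C57BL/6, its passages as 10 to 13 and its cell type as adipocyte. Both cultures were induced 2 days after confluence with insulin at 1 µg/mL, dexamethasone at 0.25 µM and IBMX at 0.5 mM for 2 days in 10% fetal bovine serum, and were then kept in insulin at 1 µg/mL and the same serum. The control culture had no further treatment, and the DF culture also had DF (DF-GA70 in the sample title), a multi-herbal preparation, in its medium until harvest. Each group is 1 library, so a value has no replicate error and no test between the conditions was run. The sources used here give neither a dose for DF nor a harvest day.

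In fat depots, new adipocytes arise from stromal cells that carry the PDGF receptors, the GPI-anchored proteins SCA-1 (Ly6a) and THY1, and the sialomucin CD34. Subsets of these cells are told apart by DPP4, CD24, LY6C and CD9: DPP4 marks an upstream interstitial progenitor, CD24 an early adipogenic progenitor, and LY6C and CD9 have been used to separate fibrogenic or inflammatory stromal cells from cells committed to fat. SCA-1, CD34 and the alpha PDGF receptor decline as such a cell becomes an adipocyte. In a cell line there is no stromal mixture to sort, so a value here is an average over the culture. Fewer cells that carry a marker and less of its RNA per cell cannot be told apart in such bulk RNA.

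The deposited values are log2 of a normalized value, and a difference is DF minus control on that scale. Low genes were set aside: to be examined, a gene needed a value of 8.18 or more in 1 library or both, the median of the values above 0 (290.75 in linear units). This left 6 of the 10 markers: Ly6a, Ly6c1, Ly6e, Pdgfra, Pdgfrb and Cd9. Ly6c1 reached the floor in the control library only, at 8.45, so it was examined through the library where it was higher. Without Ly6c1, 3 of 5 were lower by at least 1.5-fold. The shares of 10.9% lower and 10.2% higher are over all 6761 genes examined. At 2-fold, 3 markers were lower and 0 higher, where 3.21% of all examined genes were lower and 2.56% higher. These 3 were Ly6a, Pdgfra and Ly6c1, the last of which passed the floor through the control library alone. The median difference of the 7 markers above 0 in both libraries was -0.96 log2 units, beside 0.04 for the 11744 genes above 0 in both. The markers were proposed with results of these data known, so these counts describe them and do not test them.

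**Figure D1:**
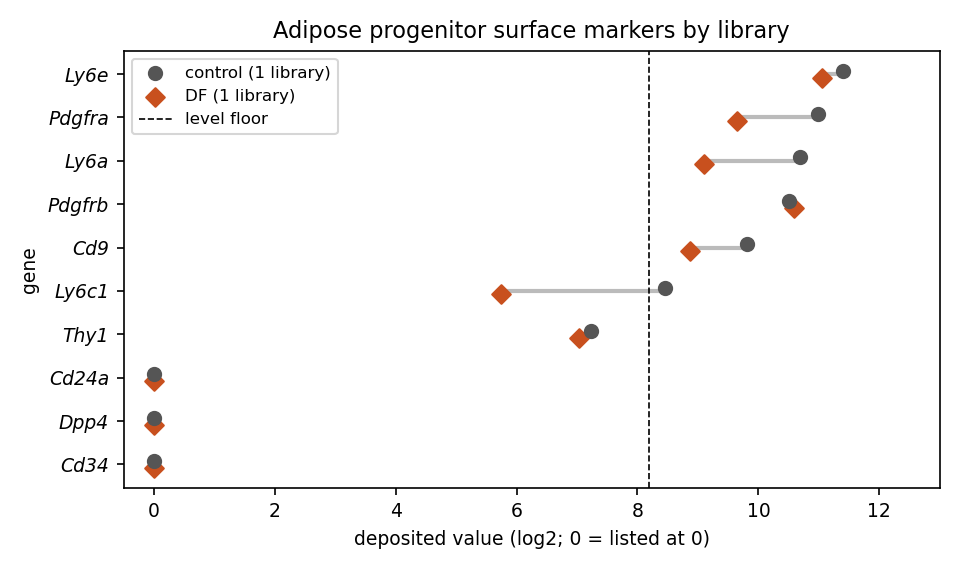
Deposited log2 value (horizontal axis) of each progenitor surface marker (vertical axis, ordered by control value) in the control library (circle) and the DF library (diamond); the dashed line is the level floor of 8.18. Ly6c1, Ly6a, Pdgfra and Cd9 have the DF point well to the left of the control point, the points of Ly6e, Pdgfrb and Thy1 lie close together, and Cd24a, Dpp4 and Cd34 lie at 0 in both.

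The promoters of Ly6c1 and Pdgfra are shown because these genes were at least 2-fold lower with DF and have an entry in the RefSeq-based promoter table. Ly6a was the third gene past 2-fold. Of the 10 markers, 5 have an entry in that table. Each window of 300 bases runs 5′ to 3′ from 250 bases before to 50 after the annotated start (GRCm38.p6), and capitals mark the motifs found. The Ly6c1 window is chr15:75048788-75049087 on the minus strand and the Pdgfra window is chr5:75152001-75152300 on the plus strand.
Ly6c1: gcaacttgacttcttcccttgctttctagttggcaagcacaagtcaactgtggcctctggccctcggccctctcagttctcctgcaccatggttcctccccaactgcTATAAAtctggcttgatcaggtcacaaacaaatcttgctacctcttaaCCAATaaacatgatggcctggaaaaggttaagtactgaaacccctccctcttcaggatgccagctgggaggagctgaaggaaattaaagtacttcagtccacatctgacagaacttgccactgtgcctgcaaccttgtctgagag
Pdgfra: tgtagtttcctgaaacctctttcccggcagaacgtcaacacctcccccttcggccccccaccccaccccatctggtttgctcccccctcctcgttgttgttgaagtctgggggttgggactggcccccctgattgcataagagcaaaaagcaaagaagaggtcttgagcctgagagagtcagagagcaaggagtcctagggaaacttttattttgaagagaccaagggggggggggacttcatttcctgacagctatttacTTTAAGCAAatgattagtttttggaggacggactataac

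Both strands were searched for TTCNNNGAA (a STAT element), a pair of GAAA separated by NN (an interferon-response element), TTGCNNNAA (a C/EBP element), TATAAA and CCAAT. The Ly6c1 window shown holds TATAAA at -143 and CCAAT at -95 from the start, and none of the other letters searched. Ly6c1 has another annotated start, at 75048663, whose window is not shown and holds none of the letters searched. The Pdgfra window holds 1 match to the C/EBP letters, on the opposite strand at 12 bases after the start. Among 32851 promoter windows of the same length, 8.30% hold the STAT letters, 3.44% the interferon-response letters, 9.56% the C/EBP letters, 13.6% TATAAA and 37.4% CCAAT. A match is a description of the letters and not a binding site, and the windows of Ly6c1 and Pdgfra share no matched motif of the 5 searched.

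Among the Ly6 genes, a cluster of small GPI-anchored proteins, Ly6a and Ly6c1 were lower with DF while Ly6e was within 1.5-fold. Ly6a encodes SCA-1, the antigen most often used to sort mouse adipose progenitors. Its value was 10.69 for the control and 9.10 for DF. That is a difference of -1.59 log2 units, or 3.01-fold lower. Ranked among the genes above 0 in its own library, Ly6a was at position 2059 in the control and position 4609 with DF, so it moved from the top 15.8% to the top 37.4% of detected genes.

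Ly6c1 encodes LY6C, a surface antigen of monocytes, endothelium and a subset of stromal progenitors. Its value was 8.45 for the control and 5.75 for DF, a difference of -2.70 log2 units (6.52-fold lower). The DF value, 53.8 on the linear scale against 350.4 in the control, lies far below the level floor, where differences between the libraries are wider for all genes. When 64 was added to each linear value before the logarithm, the difference of Ly6c1 was -1.82. It stood lowest of the 7 detected markers with and without this addition.

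Ly6e, a broadly expressed relative that is induced by interferon, was the highest of the markers in both libraries. Its values were 11.40 (control) and 11.06 (DF), 1.27-fold lower. Ly6e is thus close to equal in both libraries on this scale, while Ly6a, which lies on the same stretch of chromosome 15, is not. Within the control library Ly6a was 1.63-fold below Ly6e, and within the DF library 3.88-fold below it. This pair and the pairs below were chosen after their values were seen.

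The 3 Ly6 markers lie on chromosome 15 of GRCm38. Ly6e spans 74955051 to 74959905 on the plus strand, Ly6a 74994877 to 74998031 on the minus strand and Ly6c1 75044018 to 75048830 on the minus strand. Ly6c2, a near-identical copy of Ly6c1, follows 59.3 kb further on, from 75108158 to 75111970. Of the 226 windows of 75 bases (the read length) in the last 300 bases of the longest Ly6c1 coding transcript, 50 (22.1%) occur unchanged in a Ly6c2 transcript. Reads from these windows fit both genes, so the values of Ly6c1 and Ly6c2 are uncertain to that extent. Ly6c2 had a control value of 3.00 and was listed at 0 with DF, and adding it to Ly6c1 on the linear scale gave a difference of -2.74. None of the other 9 markers, Cd24a included, shared a window of this kind with any other gene of the annotation.

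Other genes of the Ly6 and three-finger family were mostly listed at 0 or near the bottom of the scale. Besides the 3 markers, 23 of 25 listed relatives were in the files. Of these, 16 were at 0 in both libraries, beside 44.3% of all genes. Only Cd59a, which encodes an inhibitor of complement on the cell surface, reached the floor. Its values were 10.01 (control) and 10.64 (DF), 1.55-fold higher. Ly6h, a relative best known from brain, was at 6.05 and 8.04, below the floor in both. Other relatives below the floor were named after their values were seen and went in both directions. Plaur, the urokinase receptor gene, was at 4.15 and 2.13, and Lynx1 at 3.00 and listed at 0. Ly6f and Gpihbp1 were listed at 0 in the control and were at 3.71 and 4.59 with DF.

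The PDGF receptors, tyrosine kinases that mark mesenchymal precursors, went apart. Pdgfra encodes the alpha receptor that marks fibro-adipogenic precursors, and its value was 10.99 in the control library against 9.65 with DF. It was 2.54-fold lower, a difference of -1.34 log2 units, and moved from rank 1697 to rank 3624. Pdgfrb, which encodes the beta receptor of mural and perivascular precursors, was at 10.51 and 10.58. Its difference of 0.08 log2 units left it close to its place, at rank 2294 in the control and rank 2198 with DF. In the control library Pdgfra stood 1.40-fold above Pdgfrb, and in the DF library it stood 1.91-fold below it. The normalization is not stated, and its part in this change of order was not tested. Pdgfra lies on chromosome 5 from 75152292 to 75198215 on the plus strand. It overlaps 2 annotated genes on the other strand and a microRNA gene, Mir7025, on the same strand. Whether counting used the strand is not stated. Pdgfrb lies on chromosome 18 from 61045150 to 61085061 on the plus strand and overlaps none.

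Among the ligands and proximal signalling genes of the PDGF pathway, those examined were mostly within 1.5-fold. Besides the receptors the list holds 20 genes, of which 11 were examined. None of the 11 was lower by 1.5-fold and 1 was higher, where 10.9% and 10.2% of all genes examined were. The median over the 18 above 0 in both was 0.05 log2 units, with 9 lower and 9 higher in value. Below the floor, and named after their values were seen, Plcg1 (5.03 and 3.41), Ptpn2 (7.88 and 6.83) and Nck1 (7.81 and 6.98) had lower values with DF. The gene beyond 1.5-fold was Ptpn1, a tyrosine phosphatase that acts on receptor kinases, at 8.61 (control) and 9.60 (DF). The most abundant were Pik3r1, the regulatory subunit of PI3 kinase, at 12.73 and 12.40, and Ptpn11, which encodes the phosphatase SHP2, at 11.60 and 11.76. Of the ligands, named after their values were seen, Pdgfa was at 7.30 and 7.81 and Pdgfc at 6.22 and 5.56, all below the floor, and Pdgfb and Pdgfd were listed at 0 in both.

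**Figure D2:**
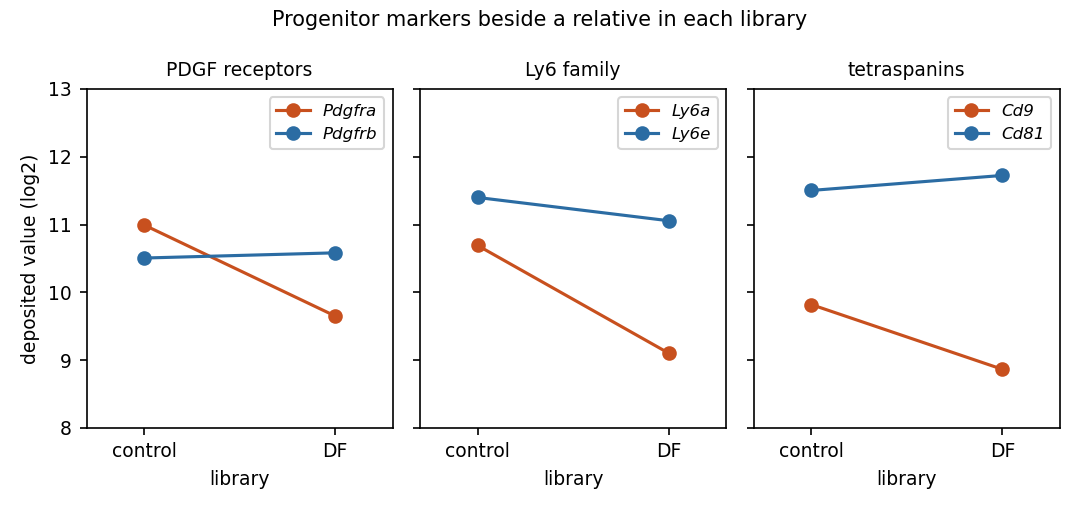
Deposited log2 value (vertical axis, from 8 to 13) in the control and DF libraries (horizontal axis) of a progenitor marker and a relative, 1 library per point. Pdgfra starts above Pdgfrb and ends below it, Ly6a drops further below Ly6e, and Cd9 drops further below Cd81.

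Cd9, a tetraspanin that organises integrins and other proteins in the membrane and that is high on fibrogenic adipose precursors, had values of 9.82 (control) and 8.86 (DF). It was 1.94-fold lower, a difference of -0.96 log2 units, which lies just inside 2-fold. It lies on chromosome 6 from 125460266 to 125494791 on the minus strand and overlaps 2 annotated noncoding genes on the other strand. The list of other tetraspanins and CD9 partners holds 27 of them besides Cd9, of which 15 were examined. None of the 15 was lower by 1.5-fold and 1 was higher, beside 10.9% and 10.2% of all genes examined. The 20 above 0 in both had a median of 0.16 log2 units.

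Cd81, the closest relative of Cd9 in function, was at 11.50 and 11.72, so that Cd9 stood 3.21-fold below Cd81 in the control and 7.26-fold below it with DF. Tspan12, a tetraspanin of the Norrin receptor complex, was 1.92-fold higher with DF (9.64 to 10.58). Cd63, a tetraspanin of late endosomes and exosomes, was at 17.90 in both libraries, and Itga6, an integrin alpha chain that binds laminin, at 13.72 and 14.09. Cd63, Itga6 with DF and Cav1 (below) lie among the highest values, of which the top 140, sorted, are identical in both files, so such values give ranks more than amounts. None of the 10 progenitor markers reaches that range, whose lower end is 13.98. Below it the sorted values nearly coincide between the files too, except at the low end. The differences of the markers thus also rest on their ranks.

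Thy1, which encodes the GPI-anchored protein CD90 of fibroblasts and precursors, was low in both libraries. Its values were 7.23 (control) and 7.03 (DF), 1.15-fold lower, and it did not reach the floor in either. It lies on chromosome 9 from 44043384 to 44048579 on the plus strand. The markers attached to the membrane by a GPI anchor and above 0 (Ly6a, Ly6c1, Ly6e and Thy1) thus had differences from -2.70 to -0.20. The genes that build and attach the anchor were above 0 in both libraries in 26 of 26 cases. Of 19 examined, 2 were lower by 1.5-fold and 3 higher, near the 10.9% and 10.2% of all genes examined, with a median of 0.02 over the 26. Of the 15 at the floor in both libraries, 1 was lower and 1 higher. Pigq and Pigt, the most abundant of them, were at 11.45 and 11.66 and at 10.88 and 11.33. Among those examined and beyond 1.5-fold, the largest differences were in Pigv (8.37 to 7.39), Pigw (7.44 to 8.31) and Pigm (8.21 to 8.98), which act in the assembly of the anchor's sugar and lipid parts. Pigv and Pigw reached the floor only in the library where they were higher.

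Cd34, Dpp4 and Cd24a were listed at 0 in both libraries, as were 10815 of the 24421 genes (44.3%). Depth is unknown in these files, so a 0 is no bound on expression. Cd34 encodes the sialomucin of stromal and haematopoietic precursors, on chromosome 1 from 194938819 to 194961279, plus strand. Dpp4 encodes a surface dipeptidase, on chromosome 2 from 62330073 to 62412231, minus strand. Cd24a encodes a small GPI-anchored sialoprotein, on chromosome 10 from 43578284 to 43584265, plus strand. No comparison between conditions can be made for these 3.

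Relatives of these undetected markers were partly present. Among CD34-like sialomucins and partners of CD24 and THY1, 4 of 10 were examined and none differed by 1.5-fold. Of all genes examined, 10.9% were lower and 10.2% higher by that much, so counts over so few genes say little. Cd164, an endolyn-type sialomucin, was at 11.26 and 11.56, and Sdc4, a syndecan that binds THY1, at 11.15 and 11.49. In the DPP4 family and its ligands, 3 of 10 were examined, 1 of them lower and 0 higher, beside the same 10.9% and 10.2%. Cav1, which encodes caveolin, was at 14.09 and 14.43. Cxcl12, a chemokine that DPP4 cleaves, was at 13.05 and 12.39, 1.57-fold lower. Fap, the nearest relative of Dpp4 and a fibroblast marker, named after its values were seen, was at 4.91 and 2.95, below the floor.

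**Figure D3:**
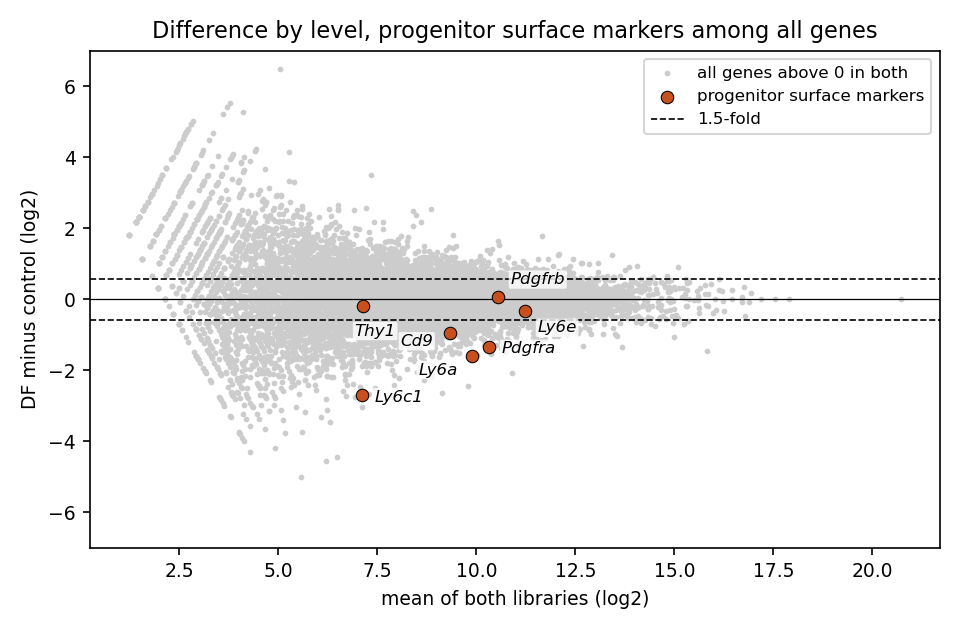
Difference between libraries (vertical axis, DF minus control, log2) against mean level (horizontal axis, log2) for the 11744 genes above 0 in both (grey) and the 7 detected progenitor surface markers (filled circles); dashed lines are 1.5-fold. Ly6c1, Ly6a and Pdgfra lie at the lower edge of the cloud at their level, Cd9 inside its lower part, and Pdgfrb, Ly6e and Thy1 within the dashed lines.

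The size of a difference was read against genes of similar level, since low genes vary more between these libraries. Among the 1782 genes whose mean level was 9 to 10, the robust SD of the difference was 0.46 log2 units. In that range 7 genes (0.393%) were as low as Ly6a or lower, counting Ly6a, and 58 (3.25%) were as low as Cd9. Among the 1348 genes at 10 to 11 the robust SD was 0.39, and 7 genes (0.519%) were as low as Pdgfra. Among the 1564 genes at 7 to 8 it was 0.65, and 3 genes (0.192%) were as low as Ly6c1. The remaining detected markers were not at an edge: 19.4% of the genes at 11 to 12 were as low as Ly6e, 36.7% of those at 7 to 8 as low as Thy1 and 57.3% of those at 10 to 11 as low as Pdgfrb. With 2 libraries, these spreads cannot separate variation between cultures from an effect of DF.

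Other markers of progenitors and mesenchymal stroma, 30 genes outside the set, had 15 examined members, of which 4 were lower by 1.5-fold and 0 higher, beside 10.9% and 10.2% of all genes examined. Of the 14 at the floor in both libraries, 3 were lower. Their median over 20 genes above 0 in both was -0.15 log2 units. F3, which encodes CD142, the marker of a progenitor subset that restrains adipogenesis, had values of 9.81 (control) and 7.54 (DF), 4.82-fold lower, and passed the floor through the control library alone. Dlk1, the secreted and membrane-bound preadipocyte factor, was 2.73-fold lower (16.55 to 15.10) and lies in the range where values give ranks. Vcam1, an adhesion molecule, was 2.07-fold lower (9.82 to 8.77). The fourth, Cd248, which encodes endosialin and was named after its values were seen, was 1.52-fold lower (10.41 to 9.81). Cd81 belongs to this list as well and was not lower.

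The remaining 11 examined were within 1.5-fold, in both directions. Among these, named after their values were seen, Itgb1, the beta-1 integrin, was at 10.98 and 10.93, and Eng (endoglin, CD105) at 10.53 and 10.73. Cd44, the hyaluronan receptor, was at 10.39 and 10.81, Mcam, an adhesion molecule of perivascular cells, at 11.28 and 10.82, and Alcam, another adhesion molecule, at 8.88 and 8.52. Of the markers used to divide adipose progenitors into an interstitial, a committed and a regulatory group, Dpp4 and Icam1 were listed at 0 in both libraries, and Pi16 was near the bottom of the scale (1.46 and 3.29). F3 was the only one of these 4 that reached the floor.

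**Figure D4:**
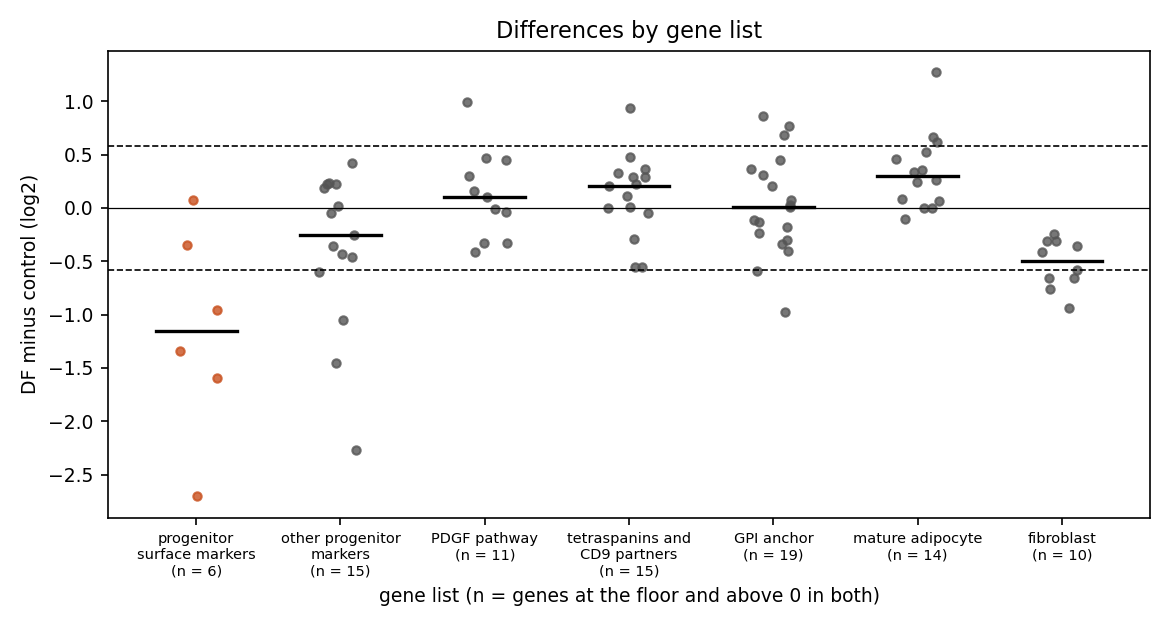
Difference between libraries (vertical axis, DF minus control, log2) of each gene at the floor and above 0 in both, by gene list (horizontal axis, n per list); bars are medians and dashed lines are 1.5-fold. The medians are -1.15 for the progenitor surface markers (-0.96 without Ly6c1, which reached the floor in the control only), -0.50 for fibroblast genes, -0.25 for other progenitor markers and 0.30 for mature adipocyte genes; the markers were chosen with results known, so the order of the lists is a description.

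Markers of other cells were read beside these values. Of 15 mature adipocyte genes, all were above 0 in both libraries, and 3 of 14 examined were higher by 1.5-fold with DF and 0 lower, beside 10.2% and 10.9% of all genes examined. Their summed linear value was 691967 in the control and 797766 with DF, of which 95.2% and 97.1% came from values of 13.98 or more, which give ranks more than amounts. All 10 fibroblast genes were lower in value with DF, where the median difference of all genes above 0 in both libraries was 0.04 log2 units. Of the fibroblast genes, 4 were lower by 1.5-fold, beside 10.9% of all genes examined. Their sums were 182850 and 135155, of which 76.9% and 58.3% came from values in that range. None of the 11 leukocyte markers in the files, nor of the 8 endothelial markers, reached the floor. The leukocyte sums were 35.6 and 63.5 with Adgre1, Cd79a, Cd3e, Fcgr1 and Tyrobp at 0 in both. The endothelial sums were 89.8 and 11.5, and Pecam1 alone made up the control sum (6.49 against 2.83 with DF). Kdr, Tek, Vwf, Emcn, Tie1 and Cldn5 were at 0 in both. Of 8 pericyte and smooth muscle genes, 1 reached the floor and stayed within 1.5-fold, with sums of 1238 and 1014.5 and Rgs5, Kcnj8 and Abcc9 at 0 in both. The part of these differences in the values of the progenitor markers was not tested.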

How the data were processed

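Messenger RNA was sequenced from 1 control and 1 DF culture with a kit that reads transcript ends, from 500 ng of RNA in single reads of 75 bases, per the labels. Each deposited file holds a gene symbol and 1 log2 value per gene, the unit being read from the values, since the headers name the sample alone. Bowtie2, edgeR and mm10 are named, per the submitters' processing notes. The sources used here do not give their versions, the read counter, strand use or the normalization. The sorted values nearly coincide between the files, as after quantile normalization, so a difference in total output is removed. They part at the low end, since 13013 genes were above 0 in the control and 12337 with DF. Depth is unknown, so no interval or detection limit was computed.

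Differences were taken with no pseudocount (Python 3.11.15, pandas 2.3.3). Values are not divided by transcript length. The plan had allowed for counts or linear values, and the branch for log2 values was used. Bins of level are 1 log2 unit wide, and the robust SD is the scaled median absolute deviation. The markers, lists and rules were chosen with earlier results of these data known. Named from each related list were the 2 most abundant genes and, of those beyond 1.5-fold, at most 3 with the largest differences; others are said to be chosen after their values were seen. Alternatives were the floor, the fold, pseudocounts of 16 and 64, centring and a repeated normalization. Not planned were the sum of Ly6c1 and Ly6c2 and the omission of Ly6c1. Positions are from GENCODE vM21 (GRCm38) and promoters from RefSeq (GRCm38.p6). Counting was tested on simulated data, with large shifts in genes well above the floor and less spread than the real genes have. That test covers the counting step alone and not the markers.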

Additional observations from a re-analysis of the deposited data

How the results depend on the processing

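With 1 library per group nothing could be left out, and differences have no replicate check. No paired analysis was possible because each group holds 1 library. Over 10 alternative settings the number of markers lower by the fold was 3 to 4 and the number higher was 0. The number was 3 with the floor on the mean, at 2-fold and without Ly6c1. The share of all genes differs by setting. With no floor it was 15.9% lower and 18.3% higher, and at 2-fold 3.21% and 2.56%. Over 9 settings the median difference of the markers ran from -1.15 to -0.65 log2 units, the latter without Ly6c1, a setting chosen after seeing the data. Of 42 values of single markers under the alternatives, 1 moved by more than the spread of genes at its level. That was Ly6c1 with a pseudocount of 64, at -1.82, which follows from its low DF value. Centring and a repeated normalization shift any gene little, and adding Ly6c2 changes Ly6c1 alone. Many of the 42 values could therefore hardly move, and the tally is a weak check. Ly6a ran from -1.61 to -1.49, Pdgfra from -1.36 to -1.28 and Cd9 from -0.98 to -0.87, and Pdgfrb stayed at 0.06 to 0.08. The depth is unknown, so no limit was set for Cd34, Dpp4 and Cd24a at 0 or for the low values of Ly6c1 and Thy1.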
